A study of Mus musculus with 16 samples.

Results

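Array data of mouse skin in 6 groups were read for 6 CC chemokine genes, Ccl2, Ccl7, Ccl12, Ccl8, Ccl9 and Ccl6. A probe set, the group of probes on the array that reads 1 transcript, belonged to them when the platform annotation gave it a member's symbol and no other. This gave 8 probe sets of the 20380 with 1 symbol: 2 each for Ccl9 and Ccl6 and 1 for each of the others. All 6 genes passed the filter on dim signal and were tested among 9058 genes. The transgenic mice, line D2 of K14deltaNB-cateninER, carry a beta-catenin without its N-terminal part, joined to an oestrogen receptor domain and driven by the keratin 14 promoter of basal keratinocytes. The wild-type mice lack it. 4-hydroxytamoxifen, the ligand that switches the fusion protein on, was given to both genotypes for 0, 1 or 7 days. Total skin RNA gave 2, 3 and 3 transgenic arrays at days 0, 1 and 7, and 3, 3 and 2 wild-type arrays at the same days. Ages are not given in the sources used here. Every treated mouse of either genotype received the drug and no array stands for treatment without it, so drug, handling and time cannot be told apart in either genotype. Whether replicates came from separate mice is not stated in the labels, so the p-values measure the spread between these arrays, which may be technical.

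CC chemokines are small secreted proteins that draw leukocytes into tissue by binding receptors coupled to G proteins on the leukocyte surface. Ccl2, Ccl7 and Ccl12, the mouse monocyte chemoattractant proteins, act through Ccr2, which lets monocytes leave bone marrow and enter inflamed tissue. Mouse Ccl8 is a ligand of Ccr8, carried by T cells of the skin, and Ccl9 and Ccl6 are mouse ligands of Ccr1, a receptor of monocytes, macrophages and neutrophils. In skin, chemokines of this family come from keratinocytes, fibroblasts, endothelium and the leukocytes themselves.

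The 6 genes lie on mouse chromosome 11 in 2 clusters. In RefSeq's gene order for GRCm38.p6, the order is Ccl2, Ccl7, Ccl11, Ccl12, Ccl8 and Ccl1, and further along it is Ccl5, Ccl9, Ccl6 and Ccl3. Promoter windows of 4 of the 6 genes matched the RefSeq table by symbol, and Ccl2 and Ccl7 did not. Ccl9 and Ccl6 are shown as neighbours that moved alike on these arrays, and Ccl12 and Ccl8 as neighbours that did not. Each window runs from 250 bases before to 50 after the start given by RefSeq (build GRCm38.p6), and reads 5′ to 3′ on the gene's own strand. Ccl12 is at chr11:82101595-82101894 and Ccl8 at chr11:82114935-82115234, both on the + strand. Ccl9 is at chr11:83578587-83578886 and Ccl6 at chr11:83593038-83593337, both on the - strand. Capitals mark the bases that are identical in the best local alignment of Ccl12 with Ccl8, and of Ccl9 with Ccl6.
Ccl12: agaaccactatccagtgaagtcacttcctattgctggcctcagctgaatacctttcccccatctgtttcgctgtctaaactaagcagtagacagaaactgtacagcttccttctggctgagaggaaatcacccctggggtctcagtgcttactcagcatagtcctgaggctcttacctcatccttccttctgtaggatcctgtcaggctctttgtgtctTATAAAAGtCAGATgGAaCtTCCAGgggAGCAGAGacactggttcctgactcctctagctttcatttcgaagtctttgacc
Ccl8: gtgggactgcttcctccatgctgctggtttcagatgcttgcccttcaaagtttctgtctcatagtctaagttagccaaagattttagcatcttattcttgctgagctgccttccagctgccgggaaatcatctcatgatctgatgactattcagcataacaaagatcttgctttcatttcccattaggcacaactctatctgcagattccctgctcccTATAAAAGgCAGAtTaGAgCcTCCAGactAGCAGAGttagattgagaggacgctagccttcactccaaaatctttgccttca
Ccl9: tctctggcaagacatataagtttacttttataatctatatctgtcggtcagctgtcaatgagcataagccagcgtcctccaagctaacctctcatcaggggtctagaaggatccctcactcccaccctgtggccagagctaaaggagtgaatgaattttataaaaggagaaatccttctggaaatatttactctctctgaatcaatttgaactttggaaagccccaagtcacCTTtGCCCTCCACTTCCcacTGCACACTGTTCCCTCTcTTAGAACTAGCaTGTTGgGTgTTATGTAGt
Ccl6: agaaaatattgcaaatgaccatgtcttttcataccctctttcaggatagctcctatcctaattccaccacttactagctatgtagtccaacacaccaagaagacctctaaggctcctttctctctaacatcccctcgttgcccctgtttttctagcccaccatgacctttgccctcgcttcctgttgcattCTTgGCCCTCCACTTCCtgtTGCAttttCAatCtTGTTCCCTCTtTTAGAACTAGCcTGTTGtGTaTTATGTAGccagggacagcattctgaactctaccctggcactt

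The Ccl12 and Ccl8 windows shared an aligned stretch of 36 columns with 28 identical bases, 77.8%, that opens on a TATA box and crosses the start. The Ccl9 and Ccl6 windows shared 74 columns with 59 identical, 79.7%. The TATAAA letters, searched on the gene's strand, began 31 bases before the start of Ccl12, 32 before that of Ccl8 and 92 before that of Ccl9. They occur in 8.32% of the 32851 windows in the same table. On both strands, the kappaB motif of NF-kB and the AP-1 letters TGANTCA were each found in 1 of the 4 windows, that of Ccl9, against 8.46% and 7.81% of all windows. The STAT letters TTCNNNGAA were in 0 of the 4, against 8.3% of all windows. None of these motifs overlapped another in the 4 windows. A match in letters is a description of the window and not a bound site.

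Values are probe set intensities scaled so that every array has the same trimmed mean, by factors of 0.825 to 1.26. Changes are differences of log2(intensity + 32) with the standard error (SE) from limma, fitted on all genes and all 16 arrays, and a gene is said to have risen or fallen when its Benjamini-Hochberg adjusted p is under 0.05. The added 32 makes the changes of dim genes smaller than the ratio of intensities. Within groups, arrays correlated at 0.974 to 0.988 over all tested genes. Esr1, whose probe set reads the oestrogen receptor, was at 80.7 to 408 on transgenic arrays and at 13.3 to 49.97 on wild-type arrays, so no array went against its label on this measure. Keratinocyte markers were present on every array, as were those of fibroblasts, muscle and macrophages. In 2 groups 1 array stood apart by its summed macrophage markers: transgenic day 1 replicate 3, at 35189 against 50419 and 51720 on the other arrays of its group, and transgenic day 7 replicate 3, at 37944 against 22475 and 22917. Results that turn on these arrays are given with and without them.

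Ccl2, a major monocyte attractant, was dim before treatment and bright after 1 day. Its scaled intensity was 103 and 85.6 on transgenic day 0 arrays, 514, 451 and 351 on transgenic day 1 arrays and 80.1, 64.3 and 170 on transgenic day 7 arrays. On wild-type arrays it was 66.8, 83.7 and 110 at day 0, 422, 511 and 962 at day 1 and 229 and 229 at day 7. Every day 1 array of either genotype exceeded every other array, and the highest transgenic day 7 array, replicate 3, was the only one of that group above the day 0 arrays. The rise to day 1 was 1.89 ± 0.31 in transgenic skin (adjusted p = 0.00143, limma) and 2.41 ± 0.28 in wild-type skin (adjusted p = 7.79e-05, limma).

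Ccl7, which binds several CC receptors besides Ccr2, followed Ccl2. It read 80.5 and 55.1 on transgenic day 0 arrays, 505, 381 and 398 on transgenic day 1 arrays and 49.7, 53.2 and 84.7 on transgenic day 7 arrays. On wild-type arrays it read 82.5, 52.7 and 122 at day 0, 434, 508 and 792 at day 1 and 159 and 190 at day 7. The transgenic day 7 arrays overlapped the transgenic day 0 arrays, while both wild-type day 7 arrays lay above all wild-type day 0 arrays. The latter separation was shown, in either direction, by 44% of all genes. The rise to day 1 was 2.21 ± 0.26 in transgenic skin (adjusted p = 0.000106, limma) and 2.37 ± 0.23 in wild-type skin (adjusted p = 2.73e-05, limma).

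Ccl12, the third mouse ligand of Ccr2 in this cluster, was likewise brightest at day 1. Its intensities were 124 and 109 on transgenic day 0 arrays, 519, 422 and 426 on transgenic day 1 arrays and 92.9, 83.7 and 107 on transgenic day 7 arrays. On wild-type arrays they were 91.6, 86.2 and 124 at day 0, 533, 709 and 770 at day 1 and 185 and 194 at day 7. The transgenic day 7 arrays all lay below the transgenic day 0 arrays, a separation that 59.6% of all genes showed in either direction. That change was -0.23 and missed the threshold (adjusted p = 0.278, limma). The day 1 arrays of the genotypes did not overlap, as for 24.8% of all genes. The rise to day 1 was 1.71 ± 0.16 in transgenic skin (adjusted p = 2.26e-05, limma) and 2.40 ± 0.14 in wild-type skin (adjusted p = 1.04e-07, limma). Ccl2, Ccl7 and Ccl12 exceeded the 40th percentile of the array on 9, 9 and 10 of the 16 arrays. They did so on all day 1 and wild-type day 7 arrays, the groups where they are high, and on few others. Of 3 transgenic day 7 arrays 1 exceeded it for Ccl2, 0 for Ccl7 and 0 for Ccl12. Their day 0 and transgenic day 7 values thus mostly sit near or below the filter level of 101 to 132 and may be mostly background.

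Ccl8 stood apart from its neighbour Ccl12. It was bright before treatment, with 4125 and 2871 on transgenic day 0 arrays, 6651, 6509 and 3238 on transgenic day 1 arrays and 4901, 5443 and 8803 on transgenic day 7 arrays. On wild-type arrays it read 3955, 3713 and 3371 at day 0, 7778, 6898 and 5657 at day 1 and 11369 and 10238 at day 7. The wild-type day 7 arrays were the 2 brightest of all 16, whereas the other 5 genes were brightest on a day 1 array. Transgenic day 1 replicate 3 lay within the day 0 range, and with it the change to day 1 in transgenic skin was 0.59 ± 0.28 and missed the threshold (adjusted p = 0.187, limma, 95% interval 0.0006 to 1.18). Without that array it was 0.93 and passed. In wild-type skin Ccl8 rose by 0.87 ± 0.25 at day 1 (adjusted p = 0.0207, limma) and stood 1.55 ± 0.28 above day 0 at day 7 (adjusted p = 0.00268, limma).

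Ccl9, a Ccr1 ligand made by macrophages and other myeloid cells, read 1830 and 1300 on transgenic day 0 arrays, 5262, 5739 and 4963 on transgenic day 1 arrays and 1308, 1229 and 2891 on transgenic day 7 arrays. On wild-type arrays it read 1873, 1875 and 2873 at day 0, 4726, 3534 and 4677 at day 1 and 3863 and 3686 at day 7. All 3 transgenic day 1 arrays exceeded every other array. In transgenic skin 2 of 3 day 7 arrays were close to the day 0 arrays and replicate 3 was above them, while in wild-type skin both day 7 arrays stayed within the day 1 range. The rise to day 1 was 1.76 ± 0.28 in transgenic skin (adjusted p = 0.00124, limma) and 0.97 ± 0.25 in wild-type skin (adjusted p = 0.0125, limma).

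Ccl6, the gene next to Ccl9 and likewise a myeloid Ccr1 ligand, read 2414 and 1600 on transgenic day 0 arrays, 5890, 6437 and 5846 on transgenic day 1 arrays and 1348, 1350 and 3740 on transgenic day 7 arrays. On wild-type arrays it read 2312, 2135 and 3661 at day 0, 6054, 4321 and 6095 at day 1 and 4268 and 4207 at day 7. Here too transgenic day 7 replicate 3 was far above the other arrays of its group. The rise to day 1 was 1.61 ± 0.34 in transgenic skin (adjusted p = 0.00772, limma) and 1.04 ± 0.30 in wild-type skin (adjusted p = 0.0230, limma). The second probe sets, tested among all 13882 kept single-symbol probe sets, moved the same way at day 1. For Ccl9 the second probe set rose by 2.01 ± 0.38 in transgenic skin (adjusted p = 0.00497, limma) and by 1.91 ± 0.34 in wild-type skin (adjusted p = 0.00182, limma), so its wild-type change was about as large as its transgenic one, unlike that of the brighter probe set. For Ccl6 the second probe set rose by 1.94 ± 0.37 in transgenic skin (adjusted p = 0.00518, limma) and by 1.22 ± 0.33 in wild-type skin (adjusted p = 0.0172, limma). The second Ccl6 probe set carries the manufacturer's suffix for probes shared by several transcripts, so part of its signal may come from a related gene.

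**Figure D1:**
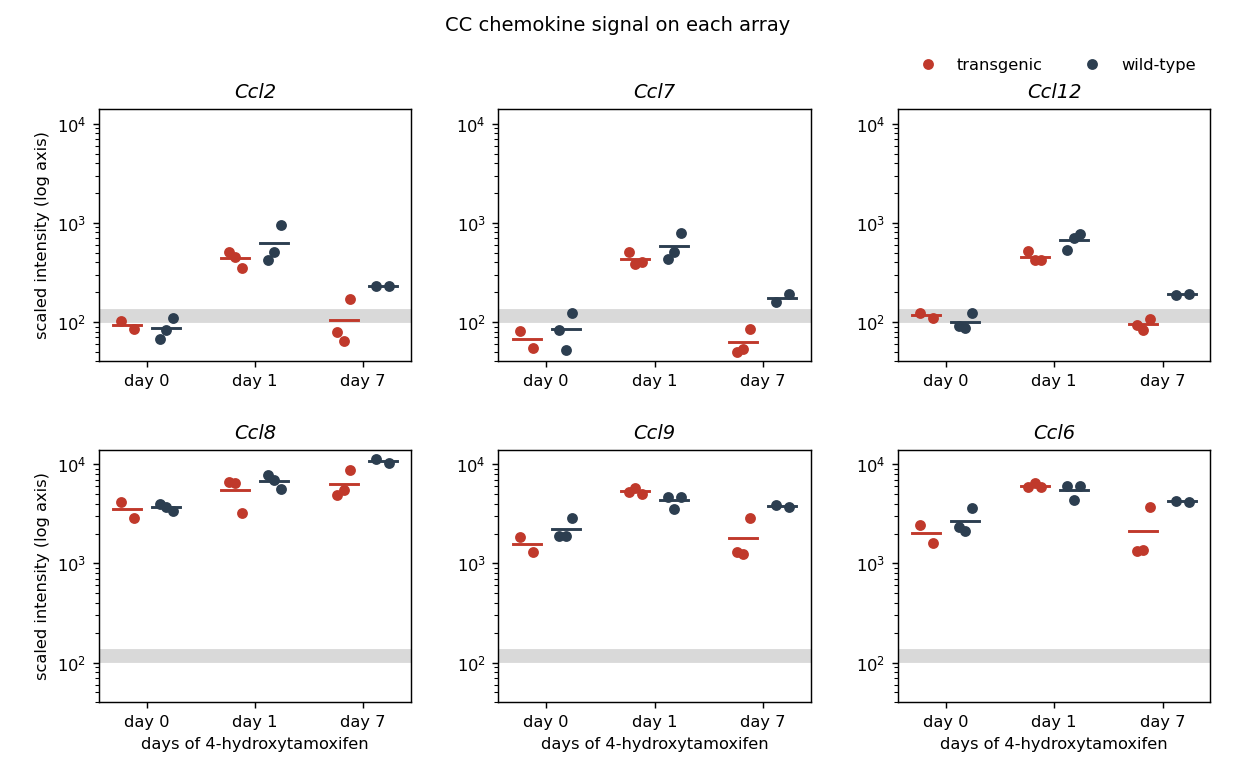
Scaled intensity of each gene (log axis) on every array by day, with transgenic points left of wild-type points, short lines at group means and a grey band at the filter level of 101 to 132. Ccl2, Ccl7 and Ccl12 leave the band at day 1, Ccl8 is highest on wild-type day 7 arrays at 10238 and 11369, and transgenic day 7 replicate 3 sits above its group for Ccl2, Ccl7, Ccl12, Ccl8, Ccl9 and Ccl6.

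The day 1 comparison sets day 1 against day 0 within each genotype. In transgenic skin 5 of the 6 genes rose, all but Ccl8, where 6.6% of all genes tested rose and 10.8% passed in either direction. In wild-type skin all 6 rose, where 10.1% of all genes rose and 22.3% passed in either direction. The median change of the 6 genes was 1.74 in transgenic skin, where it was -0.03 over all genes, and 1.71 in wild-type skin, where it was -0.02 over all genes. In wild-type skin Ccl2, Ccl12 and Ccl7 held places 4, 5 and 6 among 9058 genes ordered from the largest increase, and in transgenic skin Ccl7 held place 7 and Ccl2 place 17. Ccl2 and Ccl7 passed the filter on dim signal only through the groups where they are high, and Ccl12 mostly so. Their day 0 values were mostly near or below the filter level. That selection favours a rise, so their places and their part in the counts are descriptions only. Without transgenic day 0 replicate 2 the transgenic count was 4, Ccl6 being lost with a change of 1.31, and without transgenic day 1 replicate 3 it was 6. The wild-type count was 3, Ccl2, Ccl7 and Ccl12, when replicate 2 of day 0 or replicate 1 of day 1 was left out. All genes passing in wild-type skin then fell too, to 1226 and 1179 in place of 2023. Ccl6 alone missed the threshold without replicate 1 of day 0 or replicate 3 of day 1, and Ccl8 alone without replicate 3 of day 0 or replicate 2 of day 1.

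Whether the rise to day 1 differed by genotype was tested directly in limma, and 0 of 6 genes passed, against 0.287% of all genes, with 1 gene, Ccl12, at an unadjusted p under 0.05. The estimates were negative for Ccl2, Ccl7, Ccl12 and Ccl8, from -0.69 for Ccl12 to -0.16 for Ccl7, and positive for Ccl9 at 0.79 and Ccl6 at 0.57. The 95% intervals of the last 2 ran from -0.02 to 1.59 and from -0.40 to 1.54. At day 1 itself 0 of 6 genes passed between transgenic and wild-type skin, against 1.3% of all genes, with 1, Ccl12, at an unadjusted p under 0.05, although the groups did not overlap for Ccl12, at -0.52 ± 0.14 (adjusted p = 0.0793, limma), or for Ccl9, at 0.31 ± 0.25 (adjusted p = 0.515, limma), as for 24.8% of all genes. The second Ccl9 probe set did not share this. Its day 1 arrays overlapped, with a day 1 difference of -0.09 ± 0.34 (adjusted p = 0.911, limma), and its difference in the rise was 0.10 ± 0.51 (adjusted p = 0.947, limma). At day 0 also 0 of 6 passed, against 0.011% of all genes. The day 0 differences lay between -0.48 for Ccl9 and 0.17 for Ccl12, and the unadjusted p was above 0.05 for every one. On the brighter Ccl9 probe set both transgenic arrays lay below the 3 wild-type arrays at day 0, a separation that 18.9% of all genes showed in either direction, and these day 0 values enter the 0.79 above.

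Day 7 was then set against day 0 within each genotype. In transgenic skin 1 of 6 genes, Ccl8, was above day 0, by 0.84 ± 0.28 (adjusted p = 0.0259, limma), where 38.7% of all genes passed and 18.6% were higher. The other 5 lay between -0.23 for Ccl12 and 0.11 for Ccl9, and the widest of their 95% intervals, that of Ccl6, ran from -0.77 to 0.67. Ccl8 missed the threshold without transgenic day 0 replicate 2 (0.58), without transgenic day 7 replicate 3 (0.58), or with the arrays left at their deposited scale (0.68). In wild-type skin 4 of 6 were still above day 0, Ccl2 by 1.15 ± 0.31, Ccl7 by 0.85 ± 0.26, Ccl12 by 0.75 ± 0.16 and Ccl8 by 1.55 ± 0.28, where 11.4% of all genes passed and 5.48% were higher. Ccl9 at 0.79 ± 0.28 and Ccl6 at 0.68 ± 0.34 missed it (adjusted p = 0.0798 and 0.215, limma), though for all 6 the wild-type day 7 arrays lay above every wild-type day 0 array, as they lay above or below for 44% of all genes. With 2 arrays at wild-type day 7, the count was 1, Ccl8, without either of them, and 2 without wild-type day 0 replicate 1 or replicate 2 or at the deposited scale. It was 6 without transgenic day 7 replicate 3. The number of all genes passing also fell without wild-type day 0 replicate 2, to 646 in place of 1036. Ccl7 missed the threshold when replicate 2 of any of 3 groups was left out, transgenic day 1, transgenic day 7 or wild-type day 1, and Ccl9 passed it without wild-type day 0 replicate 3.

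Against day 1, the day 7 values were lower in transgenic skin for 5 of 6 genes, with changes of -1.84 ± 0.28 for Ccl2, -2.29 ± 0.23 for Ccl7, -1.94 ± 0.14 for Ccl12, -1.65 ± 0.25 for Ccl9 and -1.66 ± 0.30 for Ccl6, where 44.3% of all genes passed and 22.7% fell. The largest adjusted p of the 5 was 0.00045 (limma), and the count of 5 held without each array in turn. Ccl8 was at 0.25 ± 0.25 (adjusted p = 0.443, limma). The transgenic falls of Ccl2, Ccl7 and Ccl12 end near or below the filter level, except for Ccl2 on transgenic day 7 replicate 3. In wild-type skin 3 of 6 fell, Ccl2 at -1.26 ± 0.31, Ccl7 at -1.52 ± 0.26 and Ccl12 at -1.65 ± 0.16, where 3.15% of all genes passed and 1.47% fell. Ccl9 and Ccl6 were at -0.18 ± 0.28 and -0.35 ± 0.34 (adjusted p = 0.791 and 0.635, limma), and Ccl8 was at 0.68 ± 0.28 (adjusted p = 0.193, limma). Ccl2's wild-type fall missed the threshold when any of 5 arrays was left out, wild-type day 1 replicates 2 and 3, both wild-type day 7 arrays and replicate 2 of transgenic day 1, and the count was 1, Ccl12, without wild-type day 7 replicate 1.

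**Figure D2:**
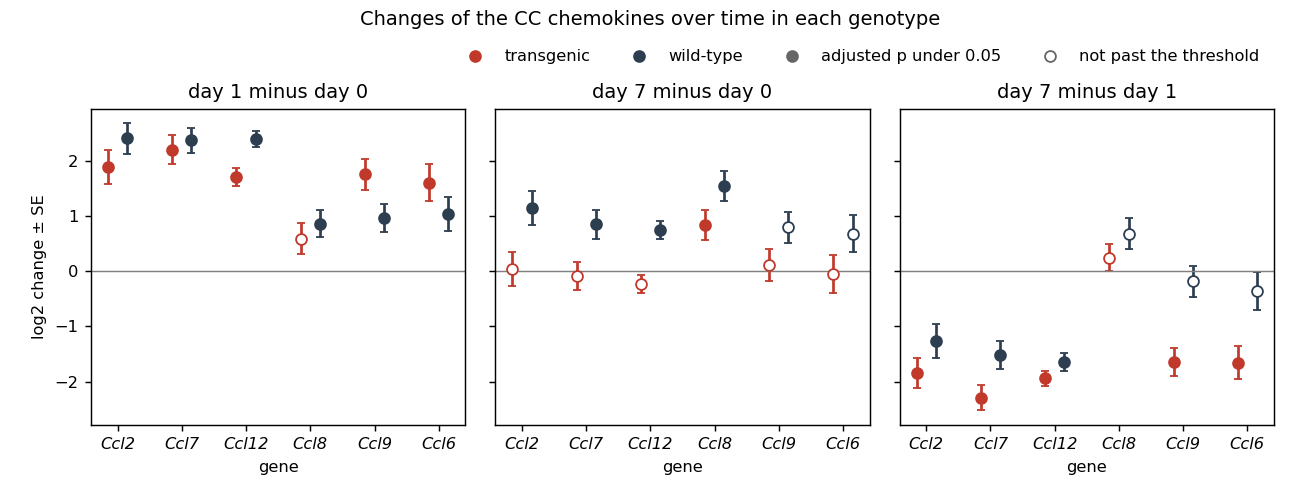
Log2 change ± SE of the 6 genes between days, transgenic left of wild-type for each gene, filled where the adjusted p is under 0.05. At day 7 minus day 1 the Ccl9 and Ccl6 points are at -1.65 and -1.66 in transgenic skin and at -0.18 and -0.35 in wild-type skin.

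At day 7 all 6 genes were lower in transgenic than in wild-type skin, where 40.5% of all genes differed and 21% were lower. The differences were -1.01 ± 0.31 for Ccl2, -1.14 ± 0.26 for Ccl7, -0.81 ± 0.16 for Ccl12, -0.80 ± 0.28 for Ccl8, -1.16 ± 0.28 for Ccl9 and -1.15 ± 0.34 for Ccl6, with adjusted p from 0.000921 for Ccl12 to 0.0301 for Ccl8 (limma). No transgenic day 7 array reached a wild-type day 7 array in any of the 6, a separation that 63% of all genes showed in one direction or the other. On transgenic day 7 arrays Ccl2, Ccl7 and Ccl12 were near or below the filter level, except for Ccl2 on replicate 3. The second probe sets gave -1.30 ± 0.38 for Ccl9 and -1.24 ± 0.37 for Ccl6 (adjusted p = 0.0146 and 0.0156, limma). The count was 3, Ccl7, Ccl12 and Ccl9, without transgenic day 7 replicate 1 or 2 or either wild-type day 7 array, and 6 without transgenic day 7 replicate 3, the array with the highest macrophage marker sum of its group.

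The difference between the genotypes in their later changes was tested as well. With all arrays kept and at the scaling used, the counts of the 6 genes passing were near the share of all genes. From day 0 to day 7 the change was smaller in transgenic than in wild-type skin for 1 of 6 genes, Ccl12, at -0.98 ± 0.23 (adjusted p = 0.00583, limma), where 23.8% of all genes passed and 11.7% had a negative difference. From day 1 to day 7 it was more negative in transgenic skin for 2 of 6, Ccl9 at -1.47 ± 0.38 (adjusted p = 0.00936, limma) and Ccl6 at -1.30 ± 0.46 (adjusted p = 0.0427, limma), where 29.3% of all genes passed and 15.1% were negative. Ccl6 missed the threshold without any 1 of transgenic day 1 replicates 1 to 3, transgenic day 7 replicates 1 and 2, wild-type day 1 replicates 1 to 3 and wild-type day 7 replicates 1 and 2. Its values then ranged from -1.39 to -1.06. Ccl7, at -0.77, passed without wild-type day 1 replicate 3, at -1.01. The second Ccl9 probe set was at -1.21 ± 0.51 (adjusted p = 0.0899, limma) and the second Ccl6 probe set at -1.54 ± 0.50 (adjusted p = 0.0322, limma). Without transgenic day 7 replicate 3 the day 0 to day 7 count was 5, without wild-type day 0 replicate 3 it was 2, and without wild-type day 1 replicate 3 it was 3. Without replicate 3 of both transgenic day 1 and transgenic day 7 the counts were 6 from day 0 to day 7 and 4 from day 1 to day 7. All genes passing then numbered 2536 and 2769 of 9023 tested. These 2 arrays were picked by their macrophage marker sums after seeing the data. Transgenic day 7 replicate 3 was also the highest array of its group for all 6 genes. Leaving it out thus lowers the transgenic day 7 means, so these counts cannot be weighed against the share of all genes.

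Ordered by mean intensity over the 6 groups, Ccl2, Ccl7 and Ccl12 shared an order at the top: wild-type day 1, then transgenic day 1, then wild-type day 7. Wild-type day 1 and transgenic day 1 overlapped for Ccl2 and Ccl7 and not for Ccl12, and both stood clear of wild-type day 7, which stood clear of the lower 3 groups. Those lower groups overlapped in turn for all 3 genes. On the brighter Ccl9 probe set the order was transgenic day 1 at 5322, wild-type day 1 at 4312 and wild-type day 7 at 3775, with the wild-type pair overlapping. On the second Ccl9 probe set transgenic day 1, at 2255, was below wild-type day 1, at 2403, and the 2 overlapped. For Ccl6 transgenic day 1 at 6058 overlapped wild-type day 1 at 5490. For Ccl8 wild-type day 7, at a mean of 10803, stood clear, and each of the other 5 groups overlapped its neighbour in the order.

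Over the 16 arrays the genes other than Ccl8 all ran alike, and those of 1 cluster somewhat more so. Pearson's r on the log2 scale was 0.973 for Ccl2 with Ccl7, 0.967 for Ccl2 with Ccl12, 0.984 for Ccl7 with Ccl12 and 0.991 for Ccl9 with Ccl6, with Spearman's rho from 0.938 to 0.950. Without the 2 arrays farthest from the median of the gene named first, these r were 0.964, 0.960, 0.982 and 0.988. Between Ccl2, Ccl7 or Ccl12 and Ccl9 or Ccl6, r was 0.829 to 0.891 and rho 0.776 to 0.929, the highest close to the lowest rho within a cluster. For Ccl8, next to Ccl12, r was 0.307 with Ccl12 and at most 0.469 with any of the others. The arrays share their groups, so r was also taken on the deviations from group means, where it was 0.789, 0.780 and 0.880 within the Ccr2 ligands, 0.994 for Ccl9 with Ccl6 and 0.109 for Ccl12 with Ccl8. Between the Ccr2 ligands and Ccl9 or Ccl6 it was 0.446 to 0.710, lowest for Ccl12. For Ccl8 it was 0.526 with Ccl9 and 0.496 with Ccl6, so on this measure Ccl8 was no farther from these 2 than Ccl12 was. These are descriptions over arrays that share labelling and scaling.

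Among the 9052 other genes, the 5 whose log2 profile over the 16 arrays was most like the mean of the 6 were Fcer1g (r = 0.983), the signalling chain of IgE and IgG receptors, Alox5ap (0.982), which leukotriene synthesis requires, Gusb (0.981), a lysosomal glucuronidase, Ms4a6b (0.980) and Bst1 (0.977), an ectoenzyme of stromal and myeloid cells. By single gene, Bst1 and Blvra, a biliverdin reductase, were most like Ccl2. Snx2, a sorting nexin, and Csf1, the macrophage growth factor, were most like Ccl7, and Snx2 and Pgf, placental growth factor, most like Ccl12. Pnp, a purine phosphorylase, and Fxyd5 were most like both Ccl9 and Ccl6. Ccl8 had a different pair, Fkbp1b and Fbln2, an extracellular matrix protein, with r of 0.926 and 0.925.

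The genes that flank these 6 on the chromosome had day 1 values of their own. Ccl11, an eosinophil attractant that lies between Ccl7 and Ccl12, was at -0.06 ± 0.27 in transgenic skin (adjusted p = 0.909, limma) and rose by 0.83 ± 0.24 in wild-type skin (adjusted p = 0.0215, limma). The genotype difference in that change was -0.89 ± 0.36 and missed the threshold (adjusted p = 0.262, limma). At day 1 itself Ccl11 was lower in transgenic than in wild-type skin, at -1.03 ± 0.24 (adjusted p = 0.0485, limma). Ccl5, a T cell and monocyte attractant next to Ccl9, was at -0.03 ± 0.29 in transgenic skin (adjusted p = 0.967, limma) and 0.32 ± 0.26 in wild-type skin (adjusted p = 0.407, limma). Ccl3 and Ccl1 did not pass the filter, with ranges of 1.99 to 7.97 and 34.5 to 137 over all arrays. In all, 7 of the 12 other CC chemokines on the array passed the filter. At day 1, 0 of the 7 changed in transgenic skin by limma, with 2 at an unadjusted p under 0.05, and 1, Ccl11, in wild-type skin, with medians of -0.08 in transgenic skin (-0.03 over all genes) and 0.25 in wild-type skin (-0.02 over all genes). Beside these counts, 10.8% of all genes passed in transgenic and 22.3% in wild-type skin. At day 7, 3 of the 7 were lower in transgenic than in wild-type skin, Ccl11 at -1.06 ± 0.27, Ccl20, an epithelial ligand of Ccr6, at -1.14 ± 0.26 and Ccl24, another eosinophil chemokine, with -1.81 ± 0.52. Of all genes 40.5% differed there and 21% were lower.

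Of the chemokines with other cysteine spacings, 9 of 16 on the array passed the filter, and Pf4, a platelet and macrophage chemokine, was the 1 that rose in both genotypes at day 1. Its change was 1.14 ± 0.21 in transgenic skin (adjusted p = 0.00308, limma) and 1.12 ± 0.19 in wild-type skin (adjusted p = 0.00102, limma). Cxcl14, a chemokine of resting epidermis, fell by 0.95 ± 0.16 in wild-type skin (adjusted p = 0.00122, limma) and was at -0.14 ± 0.18 in transgenic skin (adjusted p = 0.674, limma). The genotype difference in that change was 0.814 ± 0.245 and missed the threshold (adjusted p = 0.16, limma). At day 1 itself Cxcl14 was higher in transgenic than in wild-type skin, by 0.82 ± 0.16 (adjusted p = 0.0301, limma). The neutrophil attractants Cxcl1, Cxcl2 and Cxcl5 did not pass the filter, none of them exceeding 54.8 on any array.

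Ccr2 and Ccr1, the receptors that match 5 of the 6 ligands, rose beside them. Of 10 CC receptors on the array 3 passed the filter, and 2 of the 3 rose at day 1 in each genotype. Of all genes 6.6% rose in transgenic and 10.1% in wild-type skin. Ccr1 rose by 1.503 ± 0.42 in transgenic skin (adjusted p = 0.0315, limma) and by 1.36 ± 0.37 in wild-type skin (adjusted p = 0.0167, limma). Ccr2 rose by 0.89 ± 0.24 in transgenic skin (adjusted p = 0.0270, limma) and by 1.00 ± 0.21 in wild-type skin (adjusted p = 0.00416, limma). At day 7 both were lower in transgenic than in wild-type skin, with differences of -1.71 ± 0.42 for Ccr1 and -1.09 ± 0.24 for Ccr2. Ccr6, a receptor of Langerhans cells and lymphocytes, was at day 1 at -0.22 ± 0.19 in transgenic skin (adjusted p = 0.510, limma) and 0.27 ± 0.17 in wild-type skin (adjusted p = 0.281, limma). Ccr8, the receptor of mouse Ccl8, did not pass the filter at 8.19 to 48.6 over all arrays, and neither did Ccr3, Ccr4, Ccr7, Ccr9, Ccr10 and Ccr1l1. Between day 7 and day 1 of wild-type skin Ccr2 was at 0.32 ± 0.24 (adjusted p = 0.519, limma), while its ligands Ccl2, Ccl7 and Ccl12 fell.

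Atypical receptors bind chemokines without signalling for migration. Of 4 tested, Ackr1, which carries chemokines across venules, fell at day 1 by 0.63 ± 0.12 in transgenic skin (adjusted p = 0.00399, limma) and by 0.37 ± 0.11 in wild-type skin (adjusted p = 0.0226, limma), and at day 7 it was lower in transgenic skin, at -0.58 ± 0.12. Ackr2, the scavenger of inflammatory CC chemokines, was at day 1 at -0.16 ± 0.19 in transgenic skin (adjusted p = 0.631, limma) and 0.04 ± 0.17 in wild-type skin (adjusted p = 0.891, limma). Ackr3, a scavenger of Cxcl12, was at day 1 at 0.23 ± 0.15 in transgenic skin (adjusted p = 0.349, limma) and 0.28 ± 0.14 in wild-type skin (adjusted p = 0.148, limma), and it was lower in transgenic skin at day 7, at -1.16 ± 0.15.

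**Figure D3:**
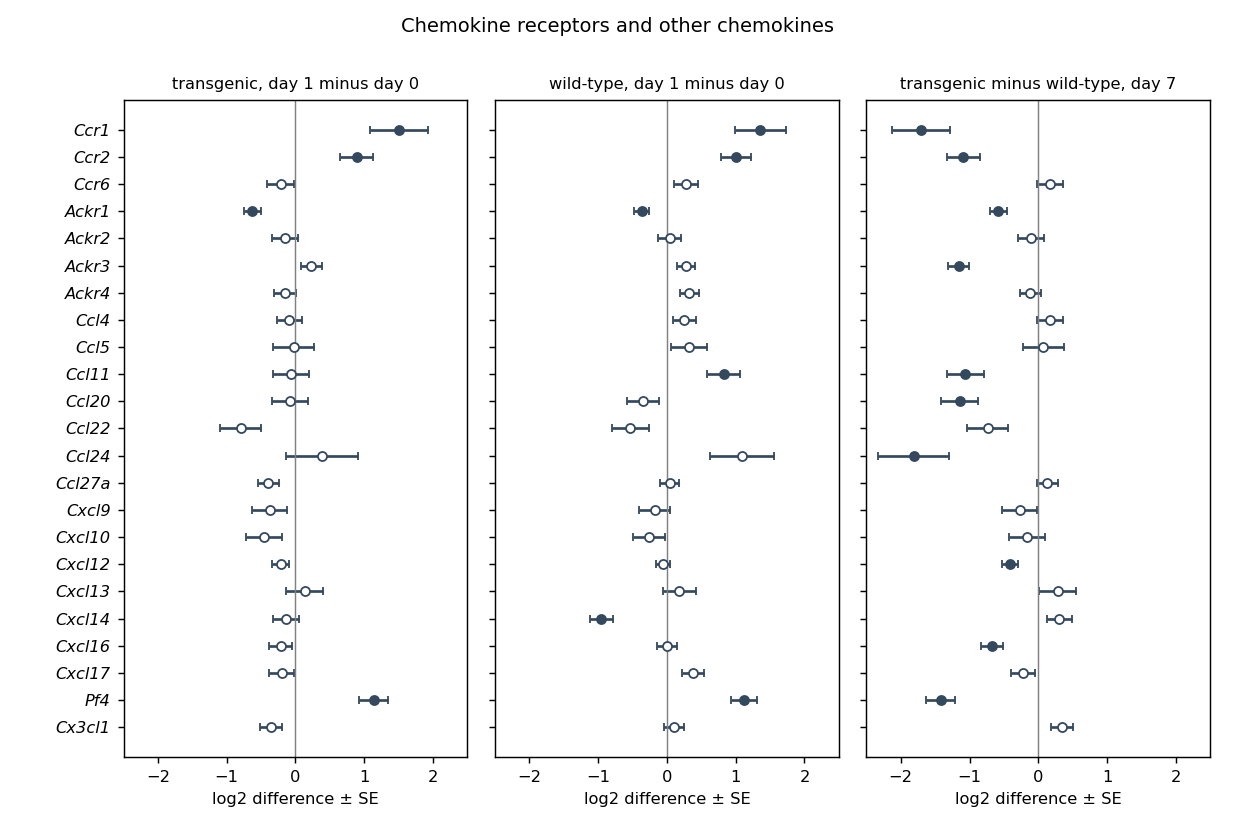
Log2 difference ± SE of the tested chemokine receptors and other chemokines for transgenic day 1 minus day 0, wild-type day 1 minus day 0, and transgenic minus wild-type at day 7, filled where the adjusted p is under 0.05. Ccr1, Ccr2 and Pf4 are filled in all 3 panels, positive in the day 1 panels and negative at day 7.

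Cytokines known to induce these chemokines were mostly dim. Of 11 on the array 4 passed the filter, and Tnf, Il6, Ifng, Il4, Il13, Il17a and Csf2 did not. Csf1 rose at day 1 by 1.41 ± 0.17 in transgenic skin (adjusted p = 0.000122, limma) and by 1.46 ± 0.15 in wild-type skin (adjusted p = 4.96e-05, limma), and at day 7 it was lower in transgenic skin, at -1.33 ± 0.17. Tgfb1 was at 0.83 ± 0.26 in transgenic skin (adjusted p = 0.0507, limma) and rose by 1.21 ± 0.23 in wild-type skin (adjusted p = 0.00225, limma). Il1b was at -0.17 ± 0.15 in transgenic skin (adjusted p = 0.482, limma) and rose by 0.40 ± 0.13 in wild-type skin (adjusted p = 0.0392, limma). The genotype difference in the day 1 change missed the threshold for both. It was -0.38 ± 0.35 for Tgfb1 and -0.57 ± 0.20 for Il1b (adjusted p = 0.64 and 0.201, limma).

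Target genes of pathways known to switch on Ccl2 were counted at day 1 beside all genes, of which 10.8% passed in transgenic skin and 22.3% in wild-type skin. Of 10 tested targets and feedback genes of NF-kB, 0 rose and 1, Nfkbiz, fell in transgenic skin, and 1, Bcl3, rose and 1, Tnip1, fell in wild-type skin, with medians of -0.08 in transgenic and -0.04 in wild-type skin. Bcl3, an IkB family member, was at 0.97 ± 0.19 in wild-type skin (adjusted p = 0.00282, limma). Of 11 tested interferon targets, 0 changed in either genotype at day 1 by limma, with 4 in transgenic and 2 in wild-type skin at an unadjusted p under 0.05 and medians of -0.32 in transgenic and 0.07 in wild-type skin. Of 12 AP-1 and immediate early genes, 0 rose in either genotype, 2 fell in transgenic skin and 3 in wild-type skin, Ier3 in both, with medians of -0.04 in transgenic and -0.23 in wild-type skin. At day 7, 5 of the 10 NF-kB genes and 5 of the 11 interferon targets were lower in transgenic than in wild-type skin, and 0 of either list were higher, where 40.5% of all genes differed and 21% were lower.

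Macrophage markers moved with the chemokines at day 1. All 18 listed markers passed the filter, none is at 0, and their summed intensity was 35189 to 51720 at transgenic day 1 against 22716 to 25766 at transgenic day 0, and 48156 to 52714 at wild-type day 1 against 23472 to 27676 at wild-type day 0. Of the 18 markers, 15 rose at day 1 in transgenic skin and 16 in wild-type skin, with medians of 1.01 in transgenic and 1.23 in wild-type skin. Of all genes 6.6% rose in transgenic and 10.1% in wild-type skin. Cd68, a lysosomal protein of macrophages, rose by 1.23 in transgenic skin and by 1.77 in wild-type skin. Mrc1, the mannose receptor, rose by 1.19 in transgenic skin and by 1.36 in wild-type skin. In whole skin, fewer cells of a type and less RNA per cell cannot be told apart. At day 7 the sum was 22475 to 37944 in transgenic skin and 53853 to 54752 in wild-type skin, and 16 of the 18 were lower in transgenic skin, with a median of -1.07, beside the median of -1.08 for the 6 chemokines. Of all genes 40.5% differed between genotypes at day 7 and 21% were lower in transgenic skin. Markers of other cells were lower there too, all 7 of endothelium, all 6 of skeletal muscle, 3 of 4 of adipocytes, 5 of 8 of fibroblasts, 4 of 5 of mast cells, 2 of 3 of neutrophils, 2 of 5 of T and NK cells, 2 of 5 of dendritic cells and 3 of 7 of keratinocytes. Of these lists 1 keratinocyte marker, Trp63, and 1 mast cell marker, Kit, were higher. The part of these shifts in the chemokine values was not tested.

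In wild-type skin the marker sum was 53853 to 54752 at day 7, against 48156 to 52714 at day 1. Of the 18 macrophage markers 0 rose and 1, Msr1, a scavenger receptor, fell by 1.05 ± 0.21 (adjusted p = 0.0130, limma), with a median of 0.08, while Ccl2, Ccl7 and Ccl12 had changes of -1.65 to -1.26. In this comparison 3.15% of all genes passed. Transgenic day 1 replicate 3 had the lowest marker sum of the day 1 arrays, 35189, and its Ccl9 and Ccl6, 4963 and 5846 on the brighter probe sets, were close to those of the other 2 arrays of its group. Some other values of that array were lower than theirs: the second Ccl9 probe set at 1655 against 2357 and 2753, Ccl2 at 351 against 514 and 451, and Ccl8 at 3238 against 6651 and 6509. Its Ccl7, at 398 against 505 and 381, and its Ccl12, at 426 against 519 and 422, lay between theirs. Neutrophil markers Mpo, Elane, Camp, Ngp and Cxcr2 lay below the filter level on all arrays, and of 3 tested neutrophil markers 0 rose at day 1 in transgenic skin, with 1 at an unadjusted p under 0.05, and 1 rose in wild-type skin. No B cell marker and no eosinophil or basophil marker passed the filter. Of 5 tested T and NK cell markers 0 changed at day 1 in either genotype, with 1 in transgenic and 0 in wild-type skin at an unadjusted p under 0.05. At day 1 10.8% of all genes passed in transgenic and 22.3% in wild-type skin.

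**Figure D4:**
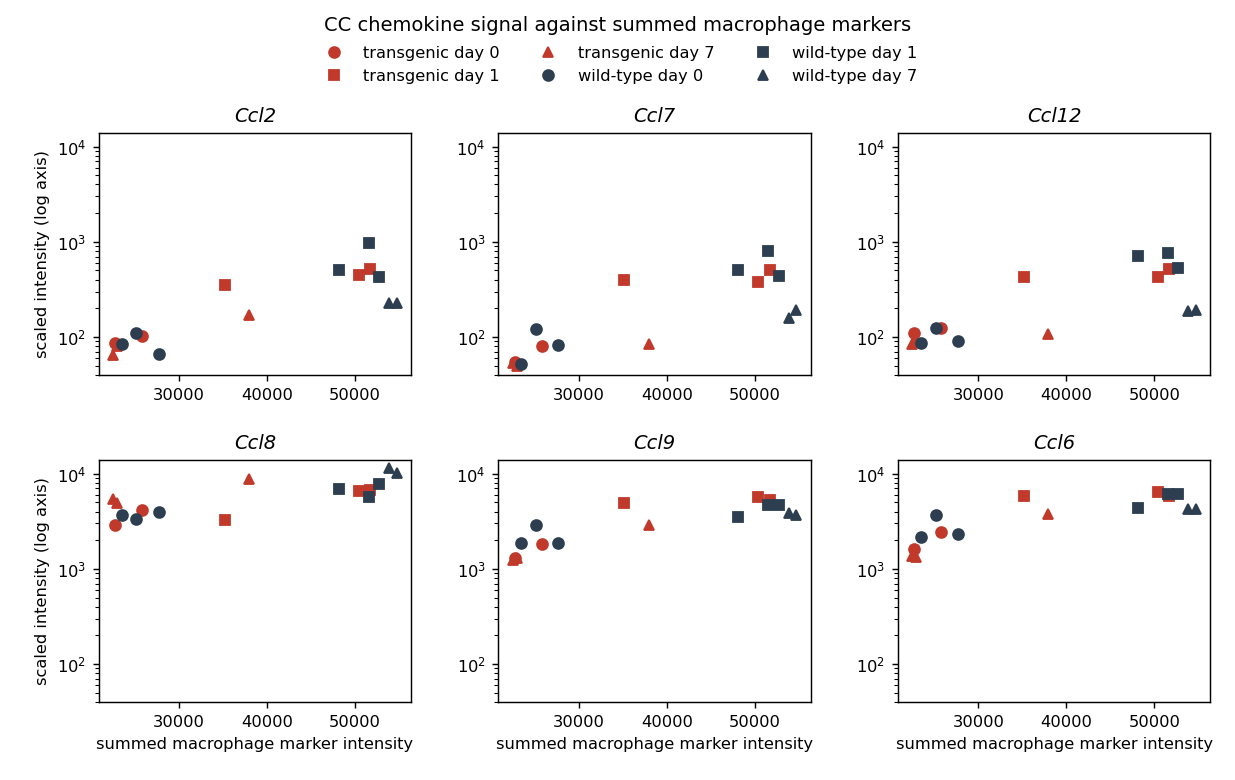
Scaled intensity of each gene (log axis) on every array against the summed intensity of 18 macrophage markers, with colour for genotype and shape for day. For Ccl2, Ccl7 and Ccl12 the wild-type day 7 arrays lie far below the wild-type day 1 arrays at a like or higher marker sum, 53853 and 54752 against 48156 to 52714, and for Ccl8 they lie above them.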

How the data were processed

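Total skin RNA was read on 1 Affymetrix mouse expression array per sample, per the labels. The deposited values are the linear intensity of 22690 probe sets on each of 16 arrays, and neither the software that made them nor any scaling is stated in the labels or the files. Arrays were grouped by genotype and day in their titles. Each array was scaled to 1 common trimmed mean (2% removed at each end), because the trimmed means spread by more than 10%. Intensities were taken as log2(intensity + 32), and a probe set was kept when 2 or more arrays had it above their own 40th percentile. Symbols came from the platform annotation, where 20380 probe sets have 1 symbol, 691 several and 1555 are not listed. The brightest probe set of each gene was used, 9058 genes in all. Limma 3.58.1 in R 4.3.3 fitted 6 group means with a variance trend and 10 residual degrees of freedom, and 12 comparisons were read from it, two-sided. The number of arrays limits the precision, and no detection calls or batches were used.

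Named genes are the 6 members and every probe set of theirs, the 5 genes most like their mean profile and 2 for each member by Pearson's r, up to 4 genes of each pathway list by day 1 p, all CC receptors, and Esr1. The flanking genes, genes of the lists named for their day 7 difference, genes below the filter and the macrophage markers were named after seeing their values. The members and lists were chosen with earlier results of these data known. The fit was tested on simulated data. Alternatives were the deposited scale, quantile normalization, an added 8 or 128, a stricter filter (60th percentile, 3 arrays) or none, each probe set tested on its own, only the groups compared, no variance trend, a replicate block and each array left out. Leaving out transgenic day 1 replicate 3 and transgenic day 7 replicate 3 together was added after seeing the data. Promoter windows, from RefSeq's GRCm38.p6, were aligned locally with Biopython 1.88 (match 2, mismatch -3, gap opening -5, gap extension -2). Figures were drawn with matplotlib 3.10.9 in Python 3.11.15.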

Additional observations from a re-analysis of the deposited data

Results flagged for a closer look

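By a test of the difference itself in limma, the change over time differed between genotypes for 1 of 6 genes to day 7 against day 0, where 23.8% of all genes passed, and for 2 of 6 to day 7 against day 1, where 29.3% passed. With all arrays kept and at the scaling used, both counts are thus near the share of all genes. At the deposited scale fewer of all genes passed, 724 and 821 of 9058. Without replicate 3 of both transgenic day 1 and transgenic day 7 the counts of the 6 genes were 6 and 4, where 2536 and 2769 of 9023 genes passed. Those arrays were picked after seeing the data, and the day 7 one was the highest of its group for all 6 genes. The counts without them thus cannot be weighed against the share of all genes. For Ccl12 the change to day 7 against day 0 was smaller in transgenic than in wild-type skin, a difference of -0.98 ± 0.23 (adjusted p = 0.00583), with -0.23 in transgenic and 0.75 in wild-type skin. For Ccl9 the change to day 7 against day 1 differed by -1.47 ± 0.38 (adjusted p = 0.00936), with -1.65 in transgenic and -0.18 in wild-type skin. For Ccl6 the same difference was -1.30 ± 0.46 (adjusted p = 0.0427), with -1.66 in transgenic and -0.35 in wild-type skin. The Ccl12 and Ccl9 differences passed without each array in turn, and that of Ccl6 did not. On the second probe sets, Ccl9 missed the threshold at -1.21 ± 0.51 (adjusted p = 0.0899) and Ccl6 passed it at -1.54 ± 0.50 (adjusted p = 0.0322).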

How the results depend on the processing

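Of 120 counts of genes past the threshold under the alternatives that kept every array, 114 stayed within 1.5 times of the reported count and 6 did not. At the deposited scale the count for transgenic day 7 against day 0 was 0 in place of 1, and that for wild-type day 7 against day 0 was 2 in place of 4. Between genotypes, for the change to day 7 since day 0, it was 2 with quantile normalization in place of 1. For the change from day 1 to day 7 it was 1 without the filter and 1 without the variance trend, in place of 2. The cause was not tested. With arrays left out singly, or the 2 transgenic arrays named in the report together, counts ranged from 4 to 6 for transgenic day 1 against day 0, 0 to 1 for day 7 against day 0 and 5 to 5 for day 7 against day 1. In wild-type skin they ranged from 3 to 6, 1 to 6 and 1 to 4. For transgenic against wild-type at day 7 they ranged from 3 to 6, and for the differences in change they were 0 to 0 to day 1, 1 to 6 from day 0 to day 7 and 1 to 4 from day 1 to day 7.

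Signs turned for values that had not passed the threshold. For transgenic day 7 against day 0, Ccl2 (0.04) was -0.079 with quantile normalization and -0.081 at the deposited scale, and Ccl9 (0.11) was -0.0389 at the deposited scale. At day 0, Ccl8 (-0.09) was 0.0687 at the deposited scale for transgenic against wild-type. With arrays left out, transgenic day 7 against day 0 ranged from -0.28 to 0.26 for Ccl2, -0.27 to 0.10 for Ccl7, -0.28 to 0.35 for Ccl9 and -0.53 to 0.24 for Ccl6, and Ccl8 ranged from -0.35 to 0.42 for day 7 against day 1. Transgenic against wild-type at day 0 ranged from -0.026 to 0.24 for Ccl2, -0.42 to 0.007 for Ccl7 and -0.35 to 0.17 for Ccl8, and at day 1 from -0.0054 to 0.24 for Ccl6. The difference in the change to day 1 ranged from -0.38 to 0.074 for Ccl7 and -0.54 to 0.062 for Ccl8.

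Deviations of arrays with the same replicate number correlated at -0.25 to 0.19 over 36 pairs, with a median of 0.03. Those of arrays with different numbers correlated at -0.21 to 0.25 over 70 pairs, with a median of -0.02. Deviations within a group sum to 0 and so mirror each other, so this check cannot exclude a pairing. With a replicate block the count for the change from day 0 to day 7 was 3 in place of 1, and Ccl2 and Ccl9 in transgenic day 7 against day 0 were -0.12 and -0.0388.

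The deposited scale moved the median of all genes by over 0.1 in some comparisons, given here with the median at that scale in brackets. They were transgenic day 1 against day 0 (-0.16), transgenic day 7 against day 0 (-0.13), wild-type day 7 against day 1 (-0.11) and transgenic against wild-type at day 0 (0.14). The differences in change from day 0 to day 1 (-0.18) and from day 0 to day 7 (-0.10) moved as well. It lowered the number of all genes passing to 186 in place of 974 and 1776 in place of 3502 for transgenic days 1 and 7 against day 0, 1892 in place of 4009 for day 7 against day 1, 465 in place of 2023, 257 in place of 1036 and 74 in place of 285 for the same comparisons in wild-type skin, and 1744 in place of 3669 for the genotypes at day 7. Of the genes passing, the share that was higher was then 29.3% in place of 48.1% for transgenic day 7 against day 0, 82.2% in place of 45.1% and 64.2% in place of 47.9% for wild-type days 1 and 7 against day 0, 75% in place of 54.2% for the genotypes at day 1, and 14.3% in place of 38.5%, 38.8% in place of 50.9% and 59% in place of 48.4% for the differences in change to day 1, from day 0 to day 7 and from day 1 to day 7. For the differences in change, all genes passing at that scale numbered 724 in place of 2154 from day 0 to day 7. From day 1 to day 7 they numbered 821 in place of 2658. Signal near background limits the changes of Ccl2, Ccl7 and Ccl12.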
